A study of Mus musculus with 30 samples.

Results

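Hemoglobin transcripts and the genes of heme synthesis were followed in the livers of 30 male C57BL6/J mice on 5 diets. The 9 genes were chosen by symbol from a table of 14173 genes, and all 9 were present and passed the filter on low counts in every comparison. They were divided into 5 transcripts known from red cells (*Hba-a1*, *Hba-a2*, *Hbb-bs*, *Hbb-bt* and *Alas2*) and 4 transcripts of the heme pathway that hepatocytes also use (*Alas1*, *Alad*, *Cpox* and *Fech*).

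The mice were 6 months old, with 6 livers per diet and 1 library per liver. Cas-20% held 20% casein with 0.57 g methionine and 0.41 g cysteine per 100 g, and Cas-5% held 5% casein with 0.15 g and 0.1 g. Soy-20% held 20% soy protein with 0.22 g of each, Soy-20% + SAA was the same diet with both amino acids raised to 0.58 g and 0.41 g, and Soy-10% held 11.5% soy protein by its label, with 0.13 g of each. All mice first ate Cas-20% or Soy-20% for 2 weeks. At 12 weeks of age the Cas-20% and Soy-20% groups stayed on these diets, the other groups were switched, and all were killed 12 weeks later after a 4 h fast. Casein groups and soy groups thus differed in the acclimation diet as well as in the protein source, and these cannot be told apart.

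Heme is made in a chain of enzymes that starts in the mitochondrion with aminolevulinate synthase, passes through the cytosol and ends in the mitochondrion, where ferrochelatase inserts iron. Red cell precursors use the isoform *Alas2* and place the heme in hemoglobin, a tetramer of alpha chains (*Hba-a1*, *Hba-a2*) and beta chains (*Hbb-bs*, *Hbb-bt*). Hepatocytes use *Alas1*, whose product sets the rate of the pathway in liver, and place much of the heme in cytochromes P450. Circulating reticulocytes still carry globin mRNA, so a piece of liver that holds blood gives globin reads.

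Each liver had from 7694015 to 14565542 counted reads (median 10803734). Levels are given as normalized counts, the deposited counts divided by 1 size factor per library. Each read marks the 3′ end of 1 transcript, so these counts do not grow with transcript length. Plain CPM, each count scaled to the library total, moved the median gene by 0.19 on the log2 scale between Cas-5% and Cas-20%, against 0.00065 for normalized counts, and were not used for levels. Some libraries stood apart from the rest. Livers 3 to 6 on Soy-20% + SAA had raised levels of transcripts with GC-rich 3′ ends, with slopes of 0.06, 0.19, 0.18 and 0.20 (log2 per 10% GC), while all other livers lay between -0.06 and 0.03. Soy-10% liver 4 had 5725 normalized counts over 6 pancreatic acinar genes, against at most 4.79 in any other liver. The hepatocyte markers were present in every library (8 of 8 genes), with a summed normalized count of 798920 or more.

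The 4 globin transcripts together took between 0.057% and 0.339% of the counts of a liver. *Hbb-bs* was the most abundant, with a normalized count of 9819 ± 4034 (SD, n = 30), followed by *Hba-a1* with 3509 ± 1525, *Hba-a2* with 2058 ± 869 and *Hbb-bt* with 1641 ± 713. *Hba-a1* (chromosome 11, 32283511 to 32284465, plus strand of GRCm38) and *Hba-a2* (chromosome 11, 32296489 to 32297298) are a duplicated pair, as are *Hbb-bs* (chromosome 7, 103826534 to 103828096, minus strand) and *Hbb-bt* (chromosome 7, 103812524 to 103813996). Of the 50-base windows in the last 300 bases of the *Hba-a1* transcript, 80.1% occur also in *Hba-a2*, and for *Hbb-bs* 36.7% occur also in *Hbb-bt*. The sources differ on the read length, and with 75-base windows the shares are 66.8% and 29.7%. How reads were divided within a pair is therefore uncertain, above all for the alpha genes.

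The 150 bases before the RefSeq starts of 3 globin genes and *Alas2* are shown as a description of these genes. They are from RefSeq on GRCm38.p6, written 5′ to 3′ on the strand of the gene, with matches on either strand in capitals. The motifs searched were GATAA (recognised by GATA factors), CACCC (by factors of the Klf family), CCAAT (the CCAAT box) and the TATA box, searched as TATAA. The RefSeq starts of *Hba-a2*, *Hbb-bs*, *Hbb-bt* and *Alas2* lie inside the gene extents of the table.
Hba-a2 (chr11:32296342-32296491): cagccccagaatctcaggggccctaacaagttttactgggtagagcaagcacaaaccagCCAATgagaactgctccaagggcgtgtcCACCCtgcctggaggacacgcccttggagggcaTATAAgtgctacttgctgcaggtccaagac
Hbb-bs (chr7:103827929-103828078): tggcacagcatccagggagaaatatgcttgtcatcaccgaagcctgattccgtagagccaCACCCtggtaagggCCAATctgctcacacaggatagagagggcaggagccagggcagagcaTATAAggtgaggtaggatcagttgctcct
Hbb-bt (chr7:103813924-103814073): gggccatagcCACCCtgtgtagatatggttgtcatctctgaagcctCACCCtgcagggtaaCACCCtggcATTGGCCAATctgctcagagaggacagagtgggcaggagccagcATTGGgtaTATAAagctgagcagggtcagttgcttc
Alas2 (chrX:150547267-150547416): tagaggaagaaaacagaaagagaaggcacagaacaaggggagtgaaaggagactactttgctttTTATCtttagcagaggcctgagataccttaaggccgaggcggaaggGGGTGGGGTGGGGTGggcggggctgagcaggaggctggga

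All 3 globin windows held the CACCC motif, the CCAAT box and the TATA box on the gene's strand, with the TATA box starting 30 bases before the RefSeq start of *Hba-a2*, 29 before that of *Hbb-bs* and 28 before that of *Hbb-bt*. The *Hba-a1* window was the same as that of *Hba-a2* at 147 of 147 aligned bases, and *Hbb-bs* and *Hbb-bt* matched at 106 of 149. The *Alas2* window held GATAA on the opposite strand, 86 to 82 bases before the start, and 3 copies of CACCC on that strand, with no match to the CCAAT box or the TATA box. The *Cpox* window also held GATAA, at the same distance of 86 bases. Among 32851 windows of this length, 13.3% held GATAA, 37.4% held the CACCC motif, 24.5% the CCAAT box and 14.2% the TATA box. These are matches of letters in the promoters and no measurement of binding. Their part in the levels of these transcripts, or in correlations between livers, was not tested.

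**Figure D1:**
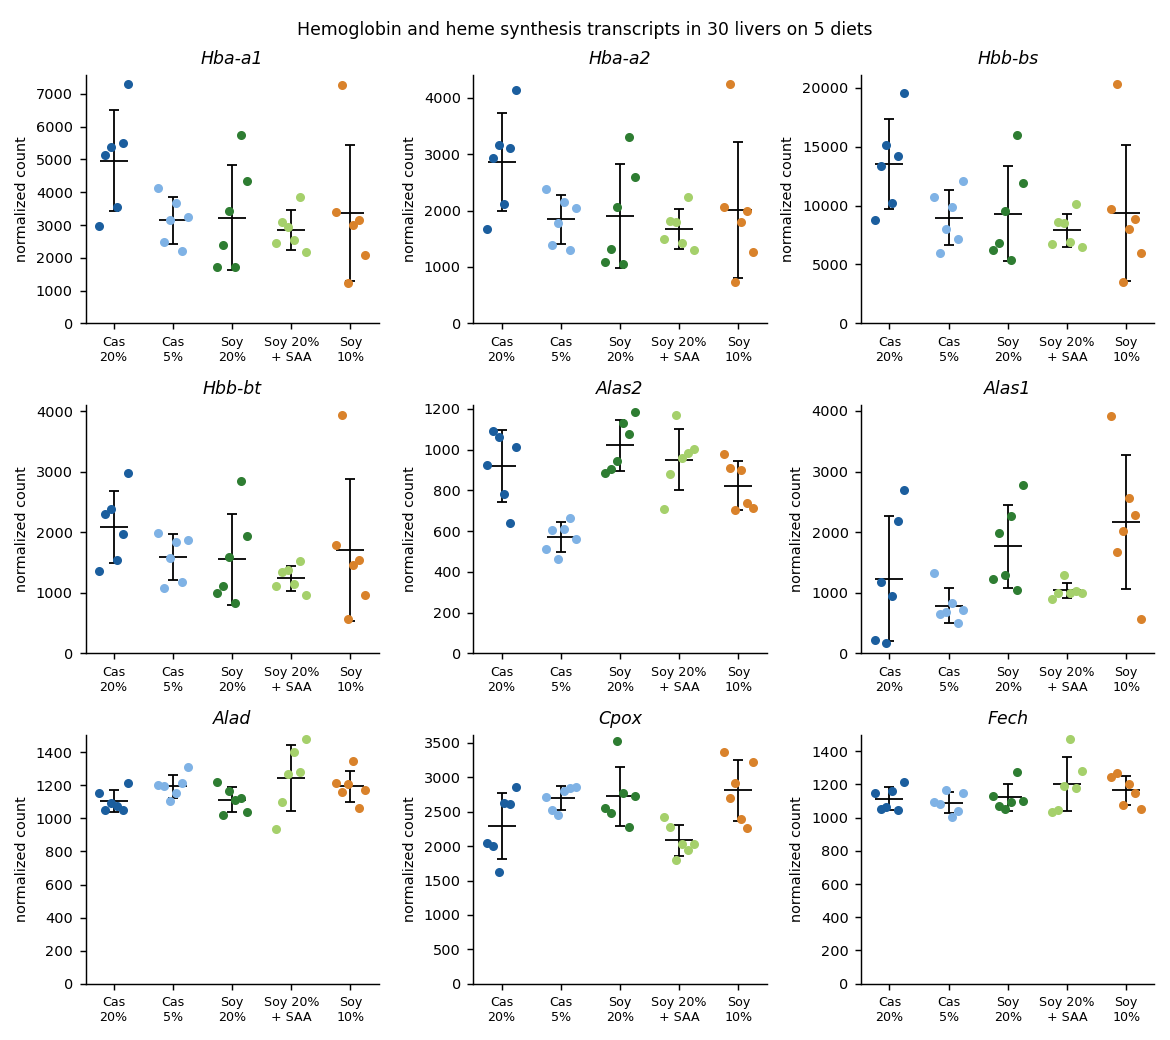
Normalized counts (y axis, from 0) of the 9 genes by diet (x axis), with 1 point per liver and a black bar with whiskers for the mean ± SD of 6 livers. The globin panels share their high and low livers, Alas2 was lowest on Cas-5%, and Alad and Fech varied by at most 1.58-fold over all 30 livers.

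Globin levels differed more between mice on the same diet than between most diets. The summed normalized count of the 4 globins was 23461 ± 6780 (SD, n = 6) on Cas-20%, 16468 ± 10241 on Soy-10%, 16001 ± 7326 on Soy-20%, 15552 ± 3678 on Cas-5% and 13654 ± 2565 on Soy-20% + SAA. In this order, every neighbouring pair below Cas-20% differed by less than 1 SD of either diet. The 6 livers of Soy-10% spanned 6036 to 35740, a 5.92-fold range, with both the lowest and the highest liver of the study. *Hbb-bs* on Soy-10% was 9676, 20287, 3486, 8010, 8837 and 5970 in livers 1 to 6, so liver 2 alone stood far above the others.

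Across the 30 livers the globins rose and fell as 1 group. Pearson's r of log2 CPM with *Hbb-bs* was 0.98 for *Hba-a1*, 0.98 for *Hba-a2* and 0.98 for *Hbb-bt*, with Spearman's rho of 0.97, 0.98 and 0.98. For these 3 genes the permutation p was 1e-05, the smallest that 100000 permutations can give, and 2.7e-05 after adjustment over the 8 relations tested. Without the 2 livers farthest from the median of *Hbb-bs*, r was 0.97, 0.97 and 0.97, and within diets it ran from 0.82 for *Hba-a1* on Cas-5% to 0.999 for *Hba-a1* on Soy-10%. The values share a library and its total, and the members of each pair share sequence.

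*Alas2* (chromosome X, 150547375 to 150570638, plus strand), the erythroid form of the first enzyme, showed a low correlation with them. Its r with *Hbb-bs* was 0.09 (Spearman's rho 0.14, n = 30 livers, permutation p = 0.63 and 0.47, adjusted 0.84 and 0.62), and 0.31 with diet means removed (permutation within diets, adjusted p = 0.18). *Alas1*, *Alad*, *Cpox* and *Fech* had r of 0.02, -0.17, -0.06 and 0.09 with *Hbb-bs*, and rho of 0.14, -0.25, 0.01 and 0.10. Their permutation p was 0.93, 0.37, 0.76 and 0.63 (adjusted 0.93, 0.75, 0.87 and 0.84) for r, and 0.45, 0.19, 0.97 and 0.60 (adjusted 0.62, 0.37, 0.97 and 0.69) for rho. With diet means removed *Fech*, the last enzyme, gave 0.33 (adjusted p = 0.11). None of these 5 relations was called by a permutation test, while all 3 globin relations were. Without the 2 livers farthest from the median of *Hbb-bs*, liver 2 and liver 3 of Soy-10%, r changed sign for *Alas2* (-0.01) and *Fech* (-0.06) and it was 0.06, -0.17 and -0.02 for *Alas1*, *Alad* and *Cpox*. Within single diets *Alas2* ran from -0.22 on Cas-5% to 0.69 on Soy-10%, and *Fech* from -0.42 on Soy-20% + SAA to 0.84 on Soy-10%. On normalized counts in place of CPM, r over the 30 livers was 0.20 for *Alas2*. It was 0.03, -0.17, -0.12 and 0.16 for *Alas1*, *Alad*, *Cpox* and *Fech*, and none of these was tested.

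**Figure D2:**
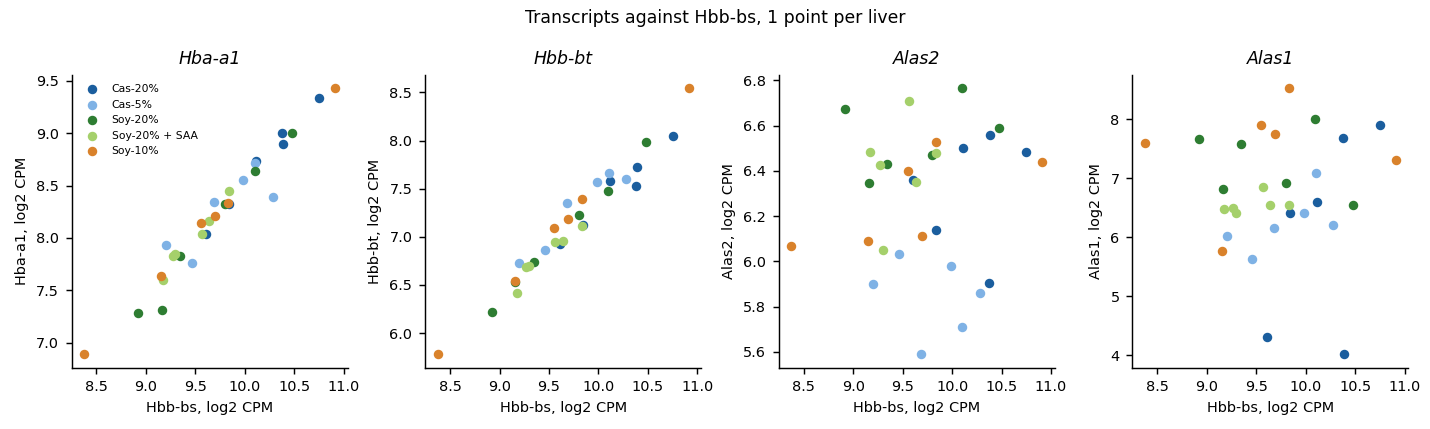
Levels of Hba-a1, Hbb-bt, Alas2 and Alas1 (y axes) against Hbb-bs (x axis), all in log2 CPM, with 1 point per liver coloured by diet. Hba-a1 and Hbb-bt lie on a line with Hbb-bs (r of 0.98 each), and Alas2 and Alas1 scatter widely (r of 0.09 and 0.02).

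*Alas2* was grouped with the globins for its known role, and its low correlation with them does not bear out that grouping in these livers, so it is given apart from them. The level of *Alas2*, 857 ± 202 normalized counts (SD, n = 30), amounted to between 2.55 and 12.6 per 100 globin counts. The red cell membrane transcripts *Slc4a1* and *Sptb* were near the detection limit, with mean normalized counts of 3.88 and 3.90 per liver. The mean of *Sptb* was 2.56 on Cas-20% and 8.66 on Cas-5%. *Bpgm* and *Isg20*, also listed as red cell markers, had means of 155 and 73.2 per liver. Of 22 red cell and reticulocyte markers, 12 were in the table, and their 6 members outside the 9 genes studied summed to 216 to 315 on Cas-20%, 253 to 314 on Cas-5%, 184 to 340 on Soy-20%, 190 to 275 on Soy-20% + SAA and 209 to 437 on Soy-10%. The median of this sum was 232 on Cas-20% and 283 on Cas-5%. The other 10 markers, among them *Ahsp*, and 6 embryonic globins were not analysed here. In liver tissue, fewer red cells and less of a transcript per cell cannot be told apart.

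By the likeness rule (the highest Pearson r with diet means removed, over 30 livers and 12024 other genes), the transcripts most like summed hemoglobin included *Cdr2* with 0.72, *Tent5c* with 0.69, *Igsf10* with 0.63 and *Cd24a* with 0.63. These 4 genes had mean normalized counts of 10.7 to 67.4, so single values carry much sampling noise.

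The ratio of the beta transcripts varied less than their levels. The count of *Hbb-bs* per count of *Hbb-bt* was 6.48 ± 0.449 on Cas-20% and 5.64 ± 0.513 on Cas-5% (SD, n = 6 each), 6.09 ± 0.295 on Soy-20%, 6.34 ± 0.309 on Soy-20% + SAA and 5.66 ± 0.385 on Soy-10%. The ratios on both restricted diets were below those on their controls in mean, and their ranges overlapped for casein (5.05 to 6.43 on Cas-5%, 5.80 to 7.19 on Cas-20%) and for soy (5.15 to 6.14 on Soy-10%, 6.01 to 6.77 on Soy-20% + SAA). No test of this ratio was made. The ratio of *Hba-a1* to *Hba-a2* stayed between 1.59 and 1.82 in all 30 livers, and the ratio of alpha to beta counts between 0.380 and 0.549.

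*Alas2* and most globins were lower under casein restriction. In the comparison of Cas-5% with Cas-20%, *Alas2* and 3 of the 4 globins fell at an adjusted p of 0.05 or less, where 13.3% of the 12076 genes tested were lower and 24.9% were called in all (edgeR quasi-likelihood F test, Benjamini-Hochberg). The globin calls are not independent, since the globins moved together across livers. None of the 4 hepatic heme genes passed. Of those 4, 1 had an unadjusted p under 0.05, and DESeq2 called none. The median log2 change was 0.05 over the 4 hepatic genes, against 0.02 over all genes tested, and the globins lay between -0.64 (*Hba-a1*) and -0.38 (*Hbb-bt*).

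*Alas2* showed the firmest fall. Its normalized counts on Cas-5% were 511, 604, 466, 613, 666 and 562 in livers 1 to 6, and on Cas-20% they were 924, 1090, 1062, 782, 639 and 1011. Only Cas-20% liver 5 reached into the Cas-5% range, and only Cas-5% liver 5 lay above it. The log2 change was -0.67 (SE 0.12, edgeR adjusted p = 0.00057), a level of 0.628 of the control. It was called in all 19 alternatives, with adjusted p from 2.9e-06 to 0.0051.

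*Hba-a1* was 2961, 5131, 5378, 3556, 5493 and 7291 on Cas-20% and 4120, 2468, 3148, 3665, 2214 and 3254 on Cas-5%. Both diets overlapped, with 4 Cas-20% livers above every Cas-5% liver. Its log2 change was -0.64 (SE 0.19, edgeR adjusted p = 0.019).

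*Hbb-bs*, the more abundant beta chain transcript, had a lowest, median and highest normalized count of 8809, 13796 and 19519 on Cas-20%. On Cas-5% *Hbb-bs* had 5963, 8934 and 12072. Its log2 change was -0.58 (SE 0.19, edgeR adjusted p = 0.031), and that of *Hba-a2*, the second alpha gene, was -0.62 (SE 0.19, edgeR adjusted p = 0.025). *Hbb-bt*, the less abundant beta chain transcript, had medians of 2141 and 1714 and was not called (log2 change -0.38, SE 0.18, edgeR adjusted p = 0.14).

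These globin calls were less firm than that of *Alas2*. With all 30 livers in 1 fit the adjusted p was 0.12 for *Hba-a1*, 0.13 for *Hba-a2* and 0.14 for *Hbb-bs*, the highest of 19 alternatives for each (from 0.0039, 0.0045 and 0.010). *Hba-a1* was called whichever liver was left out. *Hba-a2* was not called without Cas-20% liver 6 (log2 change -0.49), Cas-5% liver 2 (-0.55) or Cas-5% liver 5 (-0.53), nor *Hbb-bs* without Cas-20% liver 3 (-0.55) or 6 (-0.45) or Cas-5% liver 2 (-0.48), 3 (-0.55) or 5 (-0.52).

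Some markers of red cell precursors moved in the same comparison. Of 7 such genes tested, 3 fell, where 13.3% of all genes did, and none rose: *Car1*, a carbonic anhydrase of red cells (log2 change -0.87, SE 0.14, edgeR adjusted p = 0.00026), *Klf1*, an erythroid transcription factor (-0.80, SE 0.23, adjusted p = 0.017), and *Tfrc*, the transferrin receptor (-0.60, SE 0.19, adjusted p = 0.027). *Car2*, another carbonic anhydrase of the list, had a log2 change of 0.42 (unadjusted p = 0.049, edgeR adjusted p = 0.13). *Epor*, *Top2a* and *Mki67* of the same list had log2 changes of -0.17, -0.17 and 0.0002, not called. The summed normalized count of the 7 genes was 264 to 341 on Cas-20% and 215 to 246 on Cas-5%, and did not overlap. This sum includes the 3 called genes. None of the 9 members was without overlap between diets in any of the 5 comparisons of diets, where this held for 12.9% of genes for casein, 6.22% and 1.34% for Soy-10% against Soy-20% + SAA and Soy-20%, 2.04% for the addition of amino acids and 2.69% for the control diets. *Isg20*, listed with the red cell markers, was higher on Cas-5% than on Cas-20% by 0.46 (SE 0.12, edgeR adjusted p = 0.0087). *Bpgm* of that list had a log2 change of 0.12, not called. Soy-10% against Soy-20% + SAA gave 1 call among 6 precursor genes, where 8.47% of all genes fell: *Car1* (-0.55, edgeR adjusted p = 0.017). *Klf1* had -0.49 (edgeR adjusted p = 0.099) and *Car2* 0.44 (0.13), not called. Against Soy-20%, 0 of 6 were called, with -0.20 for *Car1* and -0.48 for *Klf1*. No globin was called in either soy comparison. The part that the number of red cells or precursors had in the change of *Alas2* and the globins under casein restriction was not tested.

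The hepatic genes showed no common direction under casein restriction. *Alas1* (chromosome 9, 106233455 to 106248654, minus strand) spanned a 14.9-fold range on Cas-20%, with 221, 1171, 181, 948, 2193 and 2695 normalized counts in livers 1 to 6, and 503 to 1328 on Cas-5%. The Cas-5% values all lay inside the Cas-20% range, and the log2 change was -0.63 (SE 0.49, edgeR adjusted p = 0.38). With summed hemoglobin as a covariate it was 0.17, also not called. *Cpox* (chromosome 16, 58670292 to 58717636, plus strand), coproporphyrinogen oxidase, had medians of 2325 on Cas-20% and 2760 on Cas-5% with a log2 change of 0.25 (SE 0.11, edgeR adjusted p = 0.12), and was called without Cas-20% liver 6 (0.32, adjusted p = 0.046, in a range of 0.041 to 0.29 over 20 alternatives). *Alad* (chromosome 4, 62509169 to 62519918, minus strand), which joins 2 aminolevulinate molecules into porphobilinogen, had a log2 change of 0.13 (SE 0.06, adjusted p = 0.15), and *Fech*, on chromosome 18, one of -0.02 (SE 0.06, adjusted p = 0.86).

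**Figure D3:**
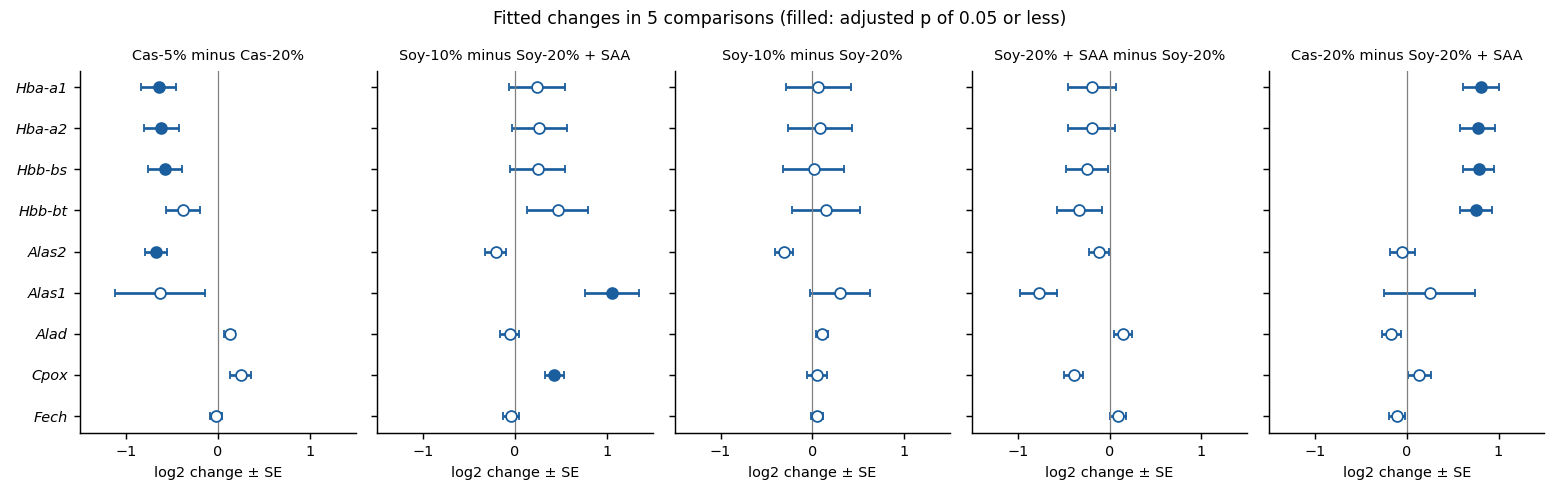
Fitted log2 changes (x axis, points with bars of 1 SE) of the 9 genes (y axis) in 5 comparisons of 6 livers with 6, filled where the edgeR adjusted p is 0.05 or less. Filled points mark Alas2 and 3 globins below 0 for Cas-5% minus Cas-20%, the globins above 0 for Cas-20% minus Soy-20% + SAA, and Alas1 and Cpox above 0 for Soy-10% minus Soy-20% + SAA.

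Under soy restriction, with Soy-20% + SAA as the control, 2 of the 4 hepatic heme genes rose and neither *Alas2* nor any of the 4 globins was called. In this comparison 8.51% of 11983 genes were higher, 8.47% were lower and 17% were called in all. The median log2 change was 0.19 over the 4 hepatic genes, against -0.01 over all genes tested. None of the globins, nor *Alas2*, had an unadjusted p under 0.05, and DESeq2 called none.

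*Alas1* was 3916, 1675, 2022, 2559, 2280 and 571 on Soy-10% and 905, 1004, 1290, 1003, 1038 and 1001 on Soy-20% + SAA. Of the Soy-10% livers, 5 lay above every control and liver 6 lay below every control. The log2 change was 1.06 (SE 0.30, edgeR adjusted p = 0.027), a level 2.08 times the control. It was not called without Soy-20% + SAA liver 5 (1.06) or 6 (1.05) or Soy-10% liver 1 (0.81) or 5 (1.05), and it was called without Soy-10% liver 4, the liver with acinar transcripts (1.01, adjusted p = 0.049, in a range of 0.0011 to 0.23 over 21 alternatives).

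*Cpox* was 3371, 2699, 2919, 2393, 2268 and 3224 on Soy-10% and 2417, 2278, 1805, 2031, 1951 and 2038 on Soy-20% + SAA. Of the Soy-10% livers, 4 lay above every control. The log2 change was 0.43 (SE 0.10, edgeR adjusted p = 0.015), 1.34 times the control, and the call held without any single liver. The 3′ end of *Cpox* is poor in GC (26% of the last 200 bases), and the 4 control livers of high GC slope had the 4 lowest values of that diet. With the slope as a covariate the log2 change was 0.33 (adjusted p = 0.19), and without those 4 livers it was 0.25 (adjusted p = 0.39). For *Alas1*, at 50% GC, the same settings gave 1.09 (adjusted p = 0.16) and 1.18 (adjusted p = 0.23).

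*Alad* and *Fech* had log2 changes of -0.06 (SE 0.10) and -0.05 (SE 0.09) in this comparison (edgeR adjusted p = 0.71 and 0.75), and both turned positive with the GC slope as a covariate (0.21 and 0.14, not called). *Alad* on Soy-20% + SAA was 936 and 1096 in livers 1 and 2 and 1270, 1399, 1278 and 1478 in livers 3 to 6, and *Fech* was 1033 and 1048 against 1192, 1474, 1175 and 1280. In both genes the 4 libraries of high GC slope were the 4 highest of the diet. *Alas2* had a log2 change of -0.21 (SE 0.12, adjusted p = 0.21), and without those 4 libraries it was 0.04.

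The globins had log2 changes from 0.24 for *Hba-a1* to 0.46 for *Hbb-bt* in this comparison, with SE of 0.30 to 0.33. Without Soy-10% liver 2, the liver with the most hemoglobin, the changes were -0.14 for *Hba-a1*, -0.10 for *Hba-a2*, -0.13 for *Hbb-bs* and 0.03 for *Hbb-bt*.

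**Figure D4:**
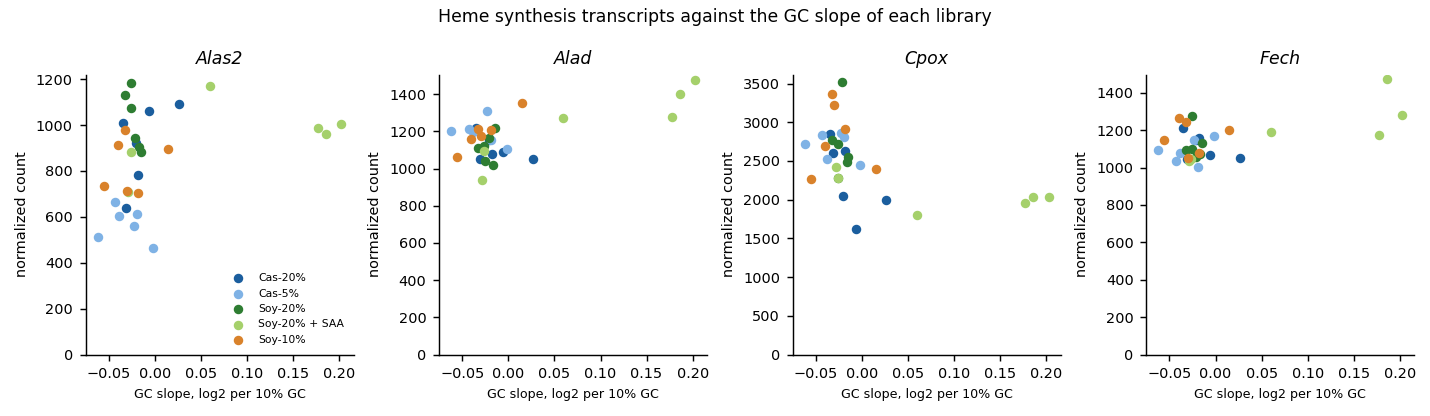
Normalized counts (y axis, from 0) of Alas2, Alad, Cpox and Fech against the GC slope of each library (x axis, log2 per 10% GC), with 1 point per liver coloured by diet. Soy-20% + SAA livers 3 to 6 lie apart at slopes of 0.06 to 0.20, where Alad and Fech are high and Cpox is low.

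With Soy-20% as the control, which shares the Soy-10% livers with the comparison above, no member was called in edgeR or DESeq2. Of the 11897 genes tested, 0.866% were called. *Alas2* was the only member with an unadjusted p under 0.05. It had lowest, median and highest normalized counts of 702, 817 and 978 on Soy-10% and 885, 1011 and 1185 on Soy-20%, and a log2 change of -0.31 (SE 0.10, edgeR adjusted p = 0.17). *Alas1* had a median of 2151 on Soy-10% and of 1644 on Soy-20%, with a log2 change of 0.30 (SE 0.33, adjusted p = 0.79), and *Cpox* one of 0.05 (SE 0.11, adjusted p = 0.92).

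Addition of methionine and cysteine to the soy diet went with lower *Alas1* and *Cpox* values that missed the threshold. *Alas1* was 1228, 1994, 1294, 2261, 1043 and 2777 on Soy-20% against 905 to 1290 on Soy-20% + SAA, with a log2 change of -0.77 (SE 0.20, edgeR adjusted p = 0.068). *Cpox* was 2554, 2483, 3522, 2770, 2280 and 2726 against 1805 to 2417, with a log2 change of -0.39 (SE 0.10, edgeR adjusted p = 0.068). The 4 highest *Alas1* livers and the 5 highest *Cpox* livers of Soy-20% lay above all supplemented livers. edgeR called 0 of the 9 members, of which these 2 had an unadjusted p under 0.05, and DESeq2 called both. In all, edgeR called 1 of 11932 genes (0.00838%). Leaving out Soy-20% + SAA liver 1 or 2, the supplemented livers without the high GC slope, gave calls for *Alas1* (-0.74 and -0.76) and *Cpox* (-0.44 and -0.42). Without the other 4 supplemented livers the changes were -0.89 for *Alas1* (adjusted p = 0.67) and -0.21 for *Cpox* (adjusted p = 0.81), the highest p of 21 alternatives for each gene (lowest 0.012 and 0.018).

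The control diets Cas-20% and Soy-20% + SAA, matched in methionine and cysteine, differed in the globins. All 4 were higher on Cas-20%, in a comparison where 1.42% of 11988 genes were higher and 2.43% were called in all. The 4 calls are not independent, since the globins moved together across livers (r of 0.98 with *Hbb-bs*). The log2 changes were 0.81 for *Hba-a1* (SE 0.19, edgeR adjusted p = 0.045), 0.77 for *Hba-a2* (SE 0.19, adjusted p = 0.049), 0.78 for *Hbb-bs* (SE 0.17, adjusted p = 0.040) and 0.75 for *Hbb-bt* (SE 0.17, adjusted p = 0.042). *Hbb-bs* was 8809, 13352, 15129, 10198, 14239 and 19519 on Cas-20% and 6743, 8618, 8480, 6892, 10117 and 6486 on Soy-20% + SAA, so 5 of 6 livers on casein lay above every liver on the soy control. *Alas2* was not called: it was 918 ± 176 on Cas-20% and 951 ± 152 on Soy-20% + SAA (SD, n = 6 each), with a log2 change of -0.05 (SE 0.14, edgeR adjusted p = 0.85). The same 6 Cas-20% livers served in the casein restriction comparison, the only other comparison of 2 diets with globin calls. The globin calls of these 2 comparisons are thus not independent. Mean summed globin counts were 23461 on Cas-20% and 13654 to 16468 on the other diets.

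The 4 globin calls lay close to the threshold and depended on single livers. Each of the 4 was lost without Cas-20% liver 2, 3, 4, 5 or 6 and without Soy-20% + SAA liver 3, 4, 5 or 6, with log2 changes of 0.67 to 0.90 for *Hba-a1*, 0.64 to 0.87 for *Hba-a2*, 0.65 to 0.86 for *Hbb-bs* and 0.63 to 0.83 for *Hbb-bt*. With the GC slope as a covariate the log2 changes were 0.79, 0.73, 0.75 and 0.72 in the same order, and none was called. The size of the difference thus moved little while its call did. None of the 4 hepatic genes was called, had an unadjusted p under 0.05 or was called by DESeq2.

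The casein effect minus the soy effect, with Soy-20% + SAA as the soy control, was tested in 24 livers. edgeR and DESeq2 called 0 of 9 members, where edgeR called 8.68% of 12532 genes (3.21% higher and 5.47% lower), and 6 members had an unadjusted p under 0.05. The differences of log2 changes were -0.89, -0.89, -0.83 and -0.85 for *Hba-a1*, *Hba-a2*, *Hbb-bs* and *Hbb-bt* (SE 0.38 to 0.40, edgeR adjusted p = 0.14 to 0.18), -0.47 for *Alas2* (SE 0.18, adjusted p = 0.093) and -1.70 for *Alas1* (SE 0.64, adjusted p = 0.090). Those of *Alad*, *Cpox* and *Fech* were 0.18, -0.18 and 0.02. *Alas2* was called without Cas-20% liver 5 (-0.55), and *Alas1* without Cas-20% liver 1 (-1.92) or 3 (-1.92), the 2 livers with the lowest *Alas1*. Without Soy-10% liver 2 the globin differences were -0.50, -0.52, -0.45 and -0.41.

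In the test over all 5 diets, 3 members differed: *Alas2* (edgeR adjusted p = 3.6e-05), *Cpox* (adjusted p = 0.010) and *Alas1* (adjusted p = 0.036), in a test that called 43.4% of 12561 genes. The order of *Alas2* by mean was Soy-20% (1021 ± 127), Soy-20% + SAA (951 ± 152), Cas-20% (918 ± 176), Soy-10% (823 ± 120) and Cas-5% (570 ± 72.8), with neighbours closer than 1 SD except for Soy-10% and Cas-5%. The order of *Cpox* was Soy-10% (2812 ± 442), Soy-20% (2723 ± 430), Cas-5% (2699 ± 173), Cas-20% (2293 ± 473) and Soy-20% + SAA (2086 ± 223), and that of *Alas1* Soy-10% (2170 ± 1099), Soy-20% (1766 ± 686), Cas-20% (1235 ± 1027), Soy-20% + SAA (1040 ± 131) and Cas-5% (787 ± 285). For both genes, neighbours in the order differed by less than the larger of their SDs. The globins were not called (adjusted p = 0.14 to 0.29), nor were *Alad*, with 1170 ± 117 over all livers (adjusted p = 0.25), and *Fech*, with 1138 ± 101 (adjusted p = 0.46). The calls of *Cpox* and *Alas1* were lost without the 4 livers of high GC slope (adjusted p = 0.20 and 0.093, the highest of 8 alternatives each, from 0.0031 and 0.024), and that of *Alas2* was kept (adjusted p = 7.1e-05).

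The other genes of the pathway were read from lists. The soy values given for them are for Soy-10% against Soy-20% + SAA, the control with the 4 libraries of high GC slope, unless Soy-20% is named. Of the 9 heme synthesis enzymes, 1 rose and 1 fell under casein restriction: *Urod*, uroporphyrinogen decarboxylase (log2 change 0.22, SE 0.07, edgeR adjusted p = 0.033), and *Alas2*, in a comparison that called 24.9% of all genes. Under soy restriction against Soy-20% + SAA only *Alas1* and *Cpox* of the 9 were called. *Ppox*, the enzyme before ferrochelatase, was called in no comparison, nor was *Uros* outside the test over 5 diets (adjusted p = 0.032).

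Of 16 genes of mitochondrial and heme transport, 1 rose and 4 fell with each restriction, where 24.9% of all genes were called for casein and 17% for soy. Against Soy-20%, edgeR called 0 of the 16, of which 3 had an unadjusted p under 0.05. *Pgrmc2*, a heme chaperone, fell by 0.75 on casein and by 0.61 on soy (log2, SE 0.09 and 0.15, edgeR adjusted p = 1.1e-05 and 0.016). The mitochondrial transporters *Abcb8* and *Slc25a39* also fell on both (*Abcb8* -0.33 and -0.52, *Slc25a39* -0.26 and -0.39). Against Soy-20% the changes were -0.34 for *Pgrmc2*, -0.12 for *Abcb8*, -0.05 for *Slc25a39*, 0.15 for *Pgrmc1* and 0.0026 for *Abcb6*. *Tmem14c*, a porphyrinogen transporter needed in red cell precursors, fell by 0.55 on casein (SE 0.06, adjusted p = 6.2e-06) and its casein effect lay below its soy effect (difference -0.40, SE 0.09, adjusted p = 0.0087). *Abcb6*, a porphyrin transporter, was lower on Soy-10% (-0.39) and on Cas-20% (-0.60) than on Soy-20% + SAA, which both comparisons share. *Clpx*, which activates ALAS2 in red cell precursors, rose by 0.29 on casein, and *Pgrmc1* by 0.26 on soy. The median log2 change over the 16 genes was -0.07 for casein and 0.06 for soy, against 0.02 and -0.01 over all genes.

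Genes that break down or scavenge heme were called in both directions. *Blvrb*, a biliverdin reductase, rose by 0.73 on casein and 0.51 on soy (SE 0.09 each, edgeR adjusted p = 1.7e-05 and 0.0019), and *Hmox1*, the inducible heme oxygenase, fell by 0.62 and 0.51 (SE 0.21 and 0.16, adjusted p = 0.037 and 0.041). *Hmox2*, the constitutive form, rose by 0.34 on casein, and *Hpx*, hemopexin, which binds free heme in plasma, fell by 0.41. Against Soy-20%, *Blvrb* had a log2 change of 0.21 (edgeR adjusted p = 0.29) and *Hmox1* one of -0.55 (adjusted p = 0.46), and edgeR called 0 of the 8 genes, 3 with an unadjusted p under 0.05. In all 4 of 8 such genes were called for casein, where 24.9% of all genes were, and 2 of 8 for soy, where 17% were, with median log2 changes of -0.03 and -0.14.

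Regulators of *Alas1* and heme showed 4 of 10 calls for casein and 2 of 10 for soy, against 24.9% and 17% of all genes. Under casein restriction *Nr1d1*, a heme-binding clock repressor (-0.56), and *Ppargc1a*, a coactivator of *Alas1* in fasting (-0.37), fell, while *Nr1i3*, the receptor CAR (0.79), and *Hnf4a* (0.27) rose (edgeR adjusted p = 0.00012, 0.014, 0.0087 and 0.0050). Under soy restriction *Nr1h4*, the bile acid receptor, rose by 0.34 and *Nr1i2*, the receptor PXR, fell by 0.36 (adjusted p = 0.018 and 0.031). Against Soy-20% their changes were 0.10 and -0.07, and edgeR called 0 of the 10 genes, 0 with an unadjusted p under 0.05. Median log2 changes over the 10 genes were 0.08 and -0.05.

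Markers of other blood cells were read beside the globins. Of all genes tested, edgeR called 24.9% on casein and 17% on soy against Soy-20% + SAA. Of the lymphocyte and monocyte genes, 1 of 7 tested fell on casein and on soy, *Ighm*, the IgM heavy chain (-1.94 and -1.19, edgeR adjusted p = 1.7e-05 and 0.0069), with -1.36 against Soy-20% (adjusted p = 0.12). Of 3 platelet genes, *Itga2b* rose on casein (0.66, adjusted p = 0.048), while *Pf4* and *Ppbp* had values of -0.35 and -0.55, not called. *Ppbp* rose on soy (1.03, adjusted p = 0.012), with 0.65 against Soy-20% (adjusted p = 0.15). The 2 neutrophil genes tested were called in neither comparison by edgeR (unadjusted p under 0.05 for 0 on casein and for 1 on soy). Between Cas-20% and Soy-20% + SAA, where the globins were called, edgeR called 0 of these 12 genes and 2.43% of all genes. An unadjusted p under 0.05 was found for 1 gene of each list. Summed over 9 lymphocyte and monocyte genes, normalized counts were 1018 to 1434 on Cas-20% and 1013 to 1244 on Soy-20% + SAA. Their part in the globin difference was not tested. Of 8 Kupffer cell genes, *Marco*, a scavenger receptor, rose on soy (2.35, adjusted p = 0.016), with 0.72 against Soy-20% (adjusted p = 0.72) and a Soy-10% median of 91.5 with 1 liver at 670, and none was called on casein (1 with an unadjusted p under 0.05). Of 5 endothelial genes, *Kdr*, a VEGF receptor, rose on casein (0.20, adjusted p = 0.026) and none was called on soy (1 with an unadjusted p under 0.05). Among 8 hepatocyte markers, *Cps1*, *Tat* and *Apoa2* fell (-1.40, -1.63 and -0.36) and *Alb* rose (0.35) on casein. On soy only *Apoa1* of the 8 was called (-0.31, edgeR adjusted p = 0.047), and against Soy-20% 0 were.

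By the likeness rule the genes closest to *Alas1* were *Wdr45b* (r = 0.79), the transcript *9330121J05Rik* (0.77), *Onecut1*, a hepatocyte transcription factor (0.75), *Plcxd2* (0.73) and *Nrep* (0.73), with diet means removed, over 30 livers and 12024 other genes. *Onecut1* spanned 21.9 to 460 normalized counts over the livers and *Alas1* 181 to 3916. None of the 5 was among the genes closest to summed hemoglobin. Lists of 5 out of 12024 genes seldom share a gene, so no conclusion is drawn from this.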

How the data were processed

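Libraries were made from liver RNA with the QuantSeq 3′ kit and sequenced on an Illumina NextSeq. The authors deposited raw counts per gene from the Lexogen QuantSeq pipeline FWD 2.3.6 on GRCm38, and the same signal divided by size factors (normalized counts, DESeq2 1.30 in R 4.0.3). The aligner is not given in the sources used here. The table holds 14173 genes, and its lowest gene total was 90 over 30 livers. Totals of 7694015 to 14565542 reads set the precision. No 2 libraries of the same diet were duplicates.

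Raw counts were tested with edgeR 4.0.16 in R 4.3.3 (filterByExpr, TMM, quasi-likelihood F test, Benjamini-Hochberg over all genes tested, threshold 0.05), with 12 livers per comparison, 24 for the casein effect minus the soy effect and 30 for the 5 diets. The replicate is the mouse. Relations used log2 CPM (prior count 2) and 100000 permutations in scipy 1.17.1, two-sided. The edgeR fits were first checked on simulated counts with known changes.

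Alternatives were RLE size factors, DESeq2 1.42.0, no filter, globins left out of the totals, the GC slope (over 12014 genes, last 200 bases of the longest coding transcript) or summed hemoglobin as a covariate, a replicate block, all 30 livers in 1 fit, and each liver left out. The setting without the 4 Soy-20% + SAA livers of high GC slope, and relations on normalized counts, were chosen after seeing the data. The genes named were the 9 members, up to 6 genes of a list with the smallest adjusted p among those called in any comparison, and the 5 genes most like summed hemoglobin or *Alas1*, among genes with a mean of at least 10 counts. *Clpx*, *Ppox*, *Bpgm*, *Epor*, *Top2a*, *Mki67* and the low red cell membrane markers were named after their values were seen. Some genes that these rules name are not reported here. The members and the lists were chosen with earlier results of these data known.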

Additional observations from a re-analysis of the deposited data

Results flagged for a closer look

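Of 50 groups of 6 livers checked, 6 had a liver whose gap to its nearest neighbour exceeded the critical share of the group's range in Dixon's test at the 95% level (the shares were 0.632 to 0.656). Chance alone gives such a liver in about 1 group of 20. Soy-10% liver 2 accounted for 4 of them, which are not independent: its normalized count was 7273 for *Hba-a1* (next highest 3410), 20290 for *Hbb-bs* (next 9676), 3941 for *Hbb-bt* (next 1787) and 35740 for the 4 globins summed (next 16940). In the Soy-20% + SAA diet, *Alas1* was 1290 in liver 3 against 1038 in the next. In the Soy-20% diet, *Fech* was 1277 in liver 5 against 1133 in the next.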

How the results depend on the processing

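Over single genes, 1115 values kept direction and side of the threshold, 79 lost a call, 12 gained one and 55 reversed. Of the counts and relations, 126 were alike, 33 moved and 2 reversed. The causes were not tested. Members called with all 30 livers in 1 fit were 1 for casein (4 in the comparison itself), 1 for Soy-10% against Soy-20% + SAA (2), 1 for the addition of amino acids (0) and 0 for the control diets (4). DESeq2 called 2 for the addition of amino acids. With the GC slope as covariate, and likewise without the 4 livers of high GC slope, 0 were called for Soy-10% against Soy-20% + SAA, 0 for the control diets and 1 over 5 diets (3). Leaving out 1 liver gave 2 to 4 for casein, 1 to 2 for Soy-10% against Soy-20% + SAA, 0 for Soy-10% against Soy-20%, 0 to 2 for the addition of amino acids, 0 to 4 for the control diets and 0 to 1 for the casein effect minus the soy effect. It was not run for the 5 diets.

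Same-numbered livers correlated from -0.19 to 0.19 and did not all match best with their own number, so the numbers pair no samples. With the replicate block, 1 member was called for Soy-10% against Soy-20% + SAA (*Cpox*) and 1 for the control diets (*Hbb-bs*). For casein, *Hba-a1* (adjusted p = 0.057) and *Hba-a2* (0.061) were not called and *Cpox* was (0.041). Under the block the log2 change of Soy-10% against Soy-20% was -0.000478 for *Hba-a1* and -0.095 for *Hbb-bs*, and that of the control diets -0.27 for *Alas1*.

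Log2 changes that reversed were uncalled. With the GC slope they were 0.21 (*Alad*) and 0.14 (*Fech*) for Soy-10% against Soy-20% + SAA, -0.000472 (*Hba-a1*) and -0.061 (*Hbb-bs*) against Soy-20%, -0.092 (*Alad*) and -0.085 (*Fech*) for the addition, 0.098 (*Alas2*), 0.045 (*Alad*) and 0.045 (*Fech*) for the control diets, and -0.021 (*Alad*) and -0.12 (*Fech*) for the casein effect minus the soy effect. Without the 4 livers they were 0.044 (*Alas2*), 0.23 (*Alad*) and 0.16 (*Fech*) for Soy-10% against Soy-20% + SAA, -0.13 (*Alad*) and -0.11 (*Fech*) for the addition, 0.20 (*Alas2*), 0.12 (*Alad*), -0.038 (*Cpox*) and 0.093 (*Fech*) for the control diets, and -0.11 (*Alad*) and -0.18 (*Fech*) for the difference of effects. With summed hemoglobin as covariate *Alas1* was 0.17 for casein and -1.21 for the control diets. The relations of *Alas2* and *Fech* to *Hbb-bs* were -0.0063 and -0.059 without the 2 farthest livers.

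With 1 liver left out, values that reversed spanned -0.043 to 0.0043 (*Fech*, casein). For Soy-10% against Soy-20% + SAA they spanned -0.14 to 0.41 (*Hba-a1*), -0.098 to 0.44 (*Hba-a2*), -0.13 to 0.42 (*Hbb-bs*) and -0.086 to 0.021 (*Fech*). Against Soy-20% they spanned -0.32 to 0.31 (*Hba-a1*), -0.28 to 0.31 (*Hba-a2*), -0.37 to 0.23 (*Hbb-bs*), -0.30 to 0.41 (*Hbb-bt*) and -0.011 to 0.14 (*Cpox*). For the addition they spanned -0.32 to 0.061 (*Hba-a1*) and -0.32 to 0.042 (*Hba-a2*), for the control diets -0.12 to 0.026 (*Alas2*) and -0.13 to 0.48 (*Alas1*), and for the difference of effects -0.046 to 0.062 (*Fech*). The red cell membrane markers, at a few counts per liver, were limited by depth.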

Other observations

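The genes whose levels were most like *Alas2* were looked up after values had been seen. With diet means removed, over 30 livers and 12024 other genes, Pearson's r was 0.64 for *Acadsb*, an enzyme of isoleucine breakdown, 0.59 for *Zap70*, a kinase of T cell receptor signalling, 0.59 for *Cyp2c23*, 0.58 for *Mup12*, a major urinary protein, and 0.57 for *Slc22a7*, a liver anion transporter. Mean normalized counts of these genes ran from 81.6 for *Zap70* to 3625 for *Cyp2c23*. None of them was among the 5 genes most like summed hemoglobin, and with lists this short out of 12024 genes no conclusion is drawn from this.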
